A study of Homo sapiens with 4 samples.

Results

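The peaks described here were the most AT-rich sites at which V5-tagged BRG1 was mapped in SW-13 cells by CUT&RUN, that is, peaks whose whole interval held under 25% G plus C in the hg19 genome. The rule used only sequence, not the score of a peak. It took 215 of the 24212 peaks of the wild-type construct (iBRG1), or 0.888% (95% Wilson interval 0.777 to 1.01%), and 1178 of the 25371 peaks of the HSA-deleted construct (i∆HSA), or 4.64% (4.39 to 4.91%). Of genome tiles of 1300 bp, about the width of a peak, 2278 of 2198969 lay under the same limit, which was 0.104%. A further 24 i∆HSA peaks held only undetermined bases and were left out of both classes.

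SW-13 cells come from an adrenocortical carcinoma and express neither BRG1 nor its paralogue BRM, and each construct was expressed from a stable line under doxycycline control. Both were assayed after 24 h of doxycycline in 300000 cells per sample with an antibody against the V5 tag, with 2 replicates per construct. The deposited data were 1 peak list per construct, with a score per peak and no value per replicate, and whether the replicates were pooled is not given in the sources used here. Single clones were carried forward, so construct, clone and library cannot be told apart, and the depth that each library reached is not given in the sources used here. No test between constructs was therefore possible. Intervals in the text are 95% Wilson intervals for shares and order-statistic intervals for medians, and cover counting error over peaks or tiles only.

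BRG1 is the ATPase of the SWI/SNF chromatin remodelling complexes. Its HSA domain binds actin and actin-related proteins and links the ATPase to the rest of the complex, and BRG1 also carries an AT-hook, a short motif that contacts the minor groove of AT-rich DNA. In CUT&RUN the DNA around the antibody is cut by micrococcal nuclease, an enzyme that cuts A and T steps more readily than G and C steps. Extremely AT-rich stretches of the human genome are often minisatellites, in which a unit longer than that of a microsatellite is repeated head to tail.

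The sequence of these sites is shown first because most of the high-scoring ones were of one kind. The runs that follow are from the forward strand of hg19, and capitals mark 1 period of the repeat as it was called, counted from its start. The first set holds a pair of loci from the top of the i∆HSA scores, 875 and 584, with periods of 27 and 24 bp. At the same loci the iBRG1 scores were 73 and 79, among the highest of the AT-rich iBRG1 peaks.
Near RALGAPB, chr20:37092380-37092570: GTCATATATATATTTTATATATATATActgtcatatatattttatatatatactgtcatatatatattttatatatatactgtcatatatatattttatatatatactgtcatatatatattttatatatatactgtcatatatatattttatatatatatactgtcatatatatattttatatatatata
Near ST3GAL6, chr3:98407699-98407842: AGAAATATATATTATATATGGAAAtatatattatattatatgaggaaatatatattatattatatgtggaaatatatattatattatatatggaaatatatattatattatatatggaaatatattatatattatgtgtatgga

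The next runs show the range of the i∆HSA peaks: the highest score (426) of those absent from the iBRG1 list, with a period of 38 bp, and the peak of lowest GC content (0.946%, score 9) in an intron of SPOCK3, with a period of 31 bp. The third run, with a period of 34 bp, is from the highest score (72) among peaks within 1 kb of the start of a protein-coding transcript, upstream of the olfactory receptor gene OR11H4.
Near PRR18, chr6:166702161-166702360: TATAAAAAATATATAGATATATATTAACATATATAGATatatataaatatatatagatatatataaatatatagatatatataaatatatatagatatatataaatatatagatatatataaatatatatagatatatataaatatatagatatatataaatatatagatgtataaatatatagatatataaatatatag
SPOCK3 intron, chr4:168030174-168030373: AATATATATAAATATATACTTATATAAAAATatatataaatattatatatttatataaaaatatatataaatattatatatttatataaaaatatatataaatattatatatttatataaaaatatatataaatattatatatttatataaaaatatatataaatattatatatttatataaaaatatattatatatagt
OR11H4, upstream, chr14:20704980-20705179: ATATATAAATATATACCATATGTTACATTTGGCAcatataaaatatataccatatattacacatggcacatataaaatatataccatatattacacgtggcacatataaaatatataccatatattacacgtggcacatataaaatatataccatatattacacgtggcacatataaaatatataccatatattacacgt

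The last runs are from the iBRG1 list. The peak nearest to the limit from below (24.97% GC, score 4), in an intron of the calcium channel gene CACNA1A, was shared. Its repeat was called at 66 bp, but the capitals hold 2 copies of a 33 bp unit. The other one, from a peak of 388 bp and score 7 near the start of a transcript with no coding sequence within VPS13C, was absent from the i∆HSA list. It held no tandem repeat, and its capitals mark the longest alternating run of T and A, 5 bp. It was chosen for these traits as an example of the peaks in the iBRG1 list alone, whose median score was 1 and of which 8.25% held a tandem repeat.
CACNA1A intron, chr19:13646665-13646864: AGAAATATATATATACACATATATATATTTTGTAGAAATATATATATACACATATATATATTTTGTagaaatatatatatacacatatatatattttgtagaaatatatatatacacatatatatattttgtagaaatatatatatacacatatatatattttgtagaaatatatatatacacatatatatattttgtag
VPS13C, chr15:62208615-62208814: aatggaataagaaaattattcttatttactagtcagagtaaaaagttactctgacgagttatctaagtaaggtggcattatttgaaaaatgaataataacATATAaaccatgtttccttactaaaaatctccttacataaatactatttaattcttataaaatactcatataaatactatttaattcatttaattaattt

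The share of the genome's AT-rich sequence that lay in a peak differed widely between the lists. Of the 2278 tiles under 25% GC, 958 had their midpoint in an i∆HSA peak, or 42.1% (40.04 to 44.1%), against 1.36% of all tiles, a ratio of 30.97. For iBRG1 the count was 142, or 6.23% (5.31 to 7.30%), against 1.31% of all tiles, a ratio of 4.75. Of these 142 tiles, 120 (84.5%) also lay in an i∆HSA peak.

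In the i∆HSA list the share was highest below 15% GC and fell from there to the class of 35 to 40%, with 1.11%. It was 82.8% (75.1 to 88.5%) below 10% GC, 81.7% from 10 to 15%, 72.6% from 15 to 20%, 53.9% from 20 to 22.5% and 21.7% (19.5 to 24.0%) from 22.5 to 25%. Past the limit it was 5.08% from 25 to 27.5% and 2.204% from 27.5 to 30%, so the limit cut through a gradient and not at a gap. The iBRG1 share was 18.9% (12.9 to 26.7%) below 10% GC, 20.6% from 10 to 15%, 9.24% from 15 to 20% and 2.81% (2.04 to 3.87%) from 22.5 to 25%. Tiles above 60% GC were in a peak in 2.74% and 3.005% of cases for iBRG1 and i∆HSA. From 50 to 60% GC the shares were 1.15% (1.11 to 1.20%) and 1.73% (1.67 to 1.79%), and from 45 to 50% they were 0.978% and 1.28%. The lists were thus nearer to each other at the GC-rich end than below 25% GC, but not equal.

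**Figure D1:**
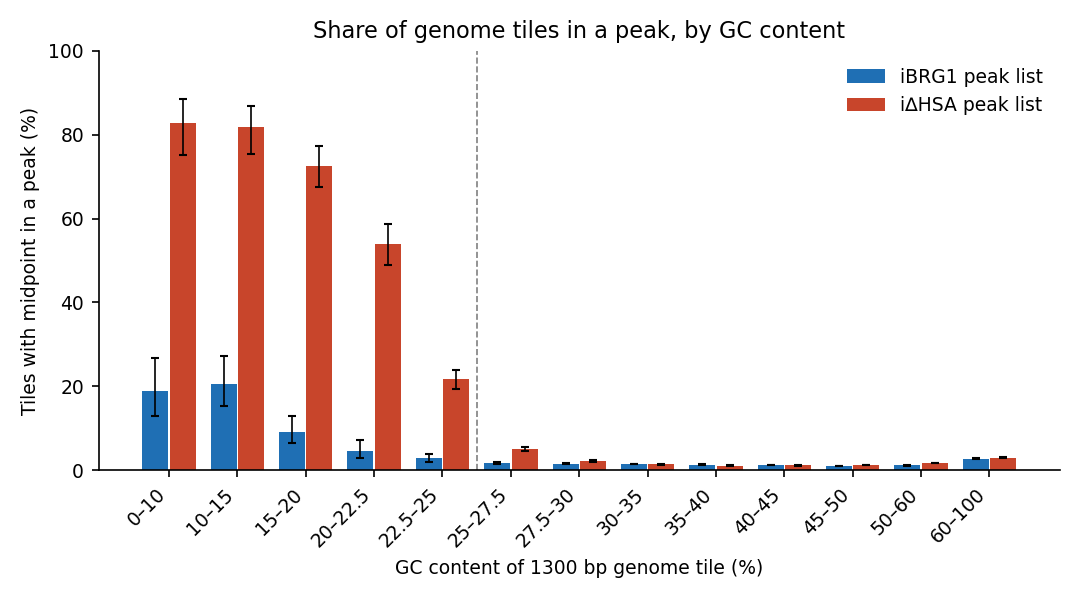
Share of 1300 bp genome tiles (y axis, %) whose midpoint lay in a peak of each list, by GC content of the tile (x axis, %). Error bars are 95% Wilson intervals and the dashed line marks 25% GC; below 10% GC the i∆HSA share was 82.8% and the iBRG1 share 18.9%.

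The score, given once per peak, set the AT-rich i∆HSA peaks apart from the rest of their list. Their median score was 12 (11 to 14; n = 1178) against 4 for the other 24169 peaks, and the quartiles were 4 and 34.8. A score of at least 5 was held by 72.9% of them (70.3 to 75.4%), against 41.1% of the whole i∆HSA list. All 10 of the highest scores of the list were AT-rich peaks, as were 37 of the highest 50, 65 of the highest 100 and 190 of the highest 500. A score of 100 or more was given to 165 i∆HSA peaks, of which 87 were AT-rich. The median score was 27.5 for the 96 peaks below 10% GC, 22 from 10 to 15%, 17 from 15 to 20%, 10 from 20 to 22.5% and 6 from 22.5 to 25%. With a limit of 30% GC the median over 3447 peaks was 4, that of the other peaks.

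As a whole the AT-rich iBRG1 peaks did not stand above their list. Their median score was 2 (2 to 2; n = 215), the same as that of the other 23997 peaks, and 22.8% (17.7 to 28.8%) had a score of at least 5, against 27.2% of the whole iBRG1 list. They held 3 of the highest 10 scores, 79 and 73 among them, but also only those 3 of the highest 100 and 5 of the highest 500. After these 3, the next AT-rich scores were 31 and 24. By GC content the median score was 3 for the 26 peaks below 10% GC and 5 for the 22 from 10 to 15%, of which 34.6% and 54.5% had a score of at least 5, then 2, 2 and 1 in the classes up to 25%. Scores are compared within a list only, since the lists may differ in depth.

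**Figure D2:**
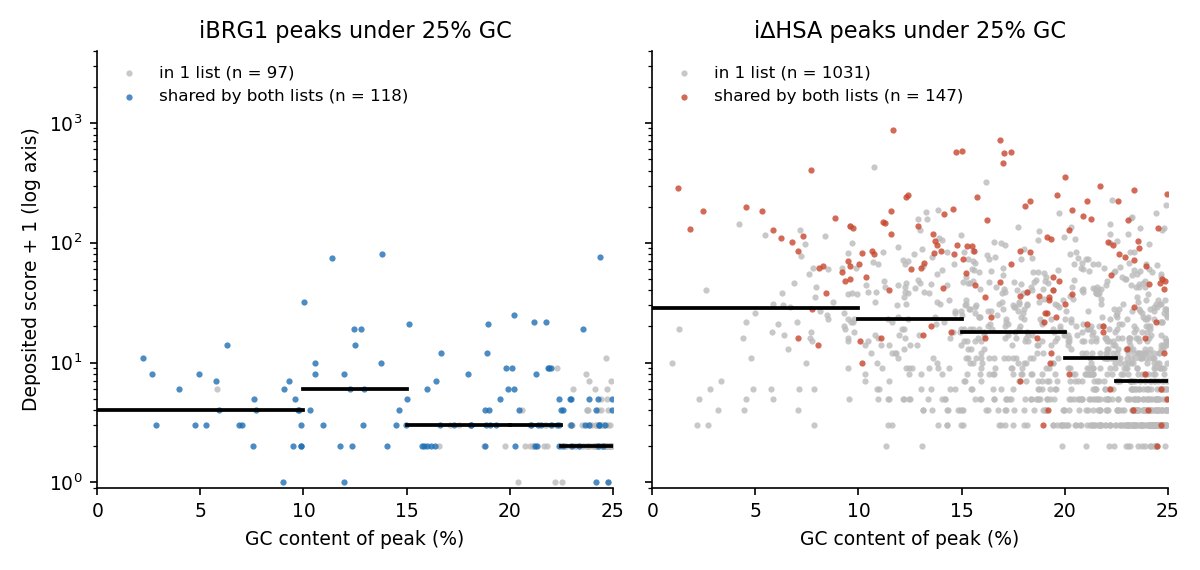
Deposited score plus 1 (log y axis) against GC content (x axis, %) for each peak under 25% GC, with 1 panel per list. Coloured points are peaks shared by both lists and black lines are medians per GC class; the i∆HSA medians run from 27.5 below 10% GC to 6 above 22.5%, while the iBRG1 medians stay between 1 and 5.

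The named loci behind the top scores lay outside protein-coding genes. In the i∆HSA list they included chr20:37091745-37092953 (score 875, 11.7% GC, 8.51 kb from RALGAPB), chr3:98406940-98408384 (score 584, 15.02% GC, 42.7 kb from ST3GAL6), chr3:152411896-152412600 (score 570, 14.8% GC) and chr14:83141280-83142611 (score 568, 17.4% GC, in an intron of LINC02301). Each of these held a tandem repeat, with periods between 24 and 86 bp, and each was shared. In the iBRG1 list the next scores after its highest 3 were at chr4:181311054-181312210 (score 31, 10.0% GC) and chr12:76514520-76518010 (score 24, 20.2% GC). The i∆HSA peaks there had scores of 285 and 407.

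The lists overlapped mainly where the i∆HSA score was high. Of the 215 AT-rich iBRG1 peaks, 118 overlapped an i∆HSA peak by at least 1 bp, or 54.9% (48.2 to 61.4%), against 20.5% of the whole iBRG1 list. Of the 1178 AT-rich i∆HSA peaks, 147 overlapped an iBRG1 peak, or 12.5% (10.7 to 14.5%), against 19.6% of the whole i∆HSA list. The i∆HSA share by score was 2.19% for scores under 5, 5.20% from 5 to 20, 13.3% from 20 to 50, 30.2% from 50 to 100 and 59.8% (49.3 to 69.4%) from 100. In the whole i∆HSA list the same bands gave 8.79%, 29.7%, 55.5%, 62.2% and 66.1%, so the AT-rich share was the lower one in each band. Those bands include the AT-rich peaks themselves, which were 87 of the 165 peaks from a score of 100. The share of the other peaks in each band was therefore higher than that of the list. With a limit of 30% GC in place of 25%, the iBRG1 share was 18.1% (16.1 to 20.2%), below that of its list.

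An AT-rich peak of one list met an AT-rich peak of the other in 100 pairs. Their median score was 3 on the scale of the iBRG1 list and 76 on that of the i∆HSA list, which are not compared directly. As ranks within each list these were the 57.8th and the 98.9th percentiles, and the i∆HSA percentile was the higher one in 99 of the 100 pairs. The same count over all overlapping peaks of the lists is not given here, so it is not shown to be particular to AT-rich pairs. The scores of the pairs ranked alike (Spearman's rho 0.70 over 100 pairs, a description only, since paired peaks share their sequence). Midpoints lay a median of 250 bp apart.

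The AT-rich iBRG1 peaks fell into 2 unlike sets by whether they were shared. The 118 shared ones had a median width of 1195 bp, a median GC content of 17.6% and a tandem repeat in 81.4% (73.4 to 87.4%). The 97 found in the iBRG1 list alone had a median width of 416 bp, a median GC content of 23.9%, a median score of 1 and a tandem repeat in 8.25% (4.24 to 15.4%). TA steps made up a median of 28.0% of dinucleotides in the shared set and 12.9% in the other, in which AA steps prevailed with 31.2% against 16.7%. The i∆HSA peaks were more alike: a tandem repeat was found in 89.1% of the 147 shared and in 61.7% of the 1031 others, and the median GC contents were 17.0% and 20.9%. GC content and width differed together with sharing here, and their part was not tested.

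Repeat type was read from the sequence, since no repeat annotation was used. A tandem repeat was called where at least 90% of the bases of a 100 bp window equalled the base 1 period earlier, for periods of 2 to 100 bp. It was found in 767 of the 1178 i∆HSA peaks, or 65.1% (62.3 to 67.8%), and in 104 of the 215 iBRG1 peaks, or 48.4% (41.8 to 55.0%). The other peaks held one in 5.62% (i∆HSA) and 1.62% (iBRG1), and the AT-rich tiles in 46.4%. The order of the lists changed with width and score. Among peaks of 1000 bp or more a repeat was found in 82.4% (79.3 to 85.1%) of i∆HSA and 90.9% (82.4 to 95.5%) of iBRG1. Under 600 bp it was found in 25.4% (20.4 to 31.2%) and 16.7% (10.7 to 25.1%). Among scores of at least 5 the shares were 77.3% (74.4 to 79.975%) and 81.6% (68.6 to 90.02%), and among lower scores 32.3% (27.4 to 37.6%) and 38.6% (31.5 to 46.1%). The intervals of the lists overlapped in each of these classes. The median called period was 33 bp in i∆HSA, 32.5 bp in iBRG1 and 33 bp in the tiles, and 67.5%, 74.0% and 69.3% of the periods lay between 20 and 40 bp. A called period can be a multiple of the unit: the smallest lag that met the same identity was shorter in 55 of 767 i∆HSA and 11 of 104 iBRG1 peaks. It had medians of 32 and 31 bp and left 21.6% and 17.3% over 40 bp, against 27.6% and 26.0% as called. Microsatellite periods under 10 bp made up 0.913% of the i∆HSA repeats and none of the 104 iBRG1 repeats, which allows a share of up to 3.56% (upper Wilson bound). The median repeat stretch was 247 bp in i∆HSA and 266 bp in iBRG1, well inside the median peak.

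**Figure D3:**
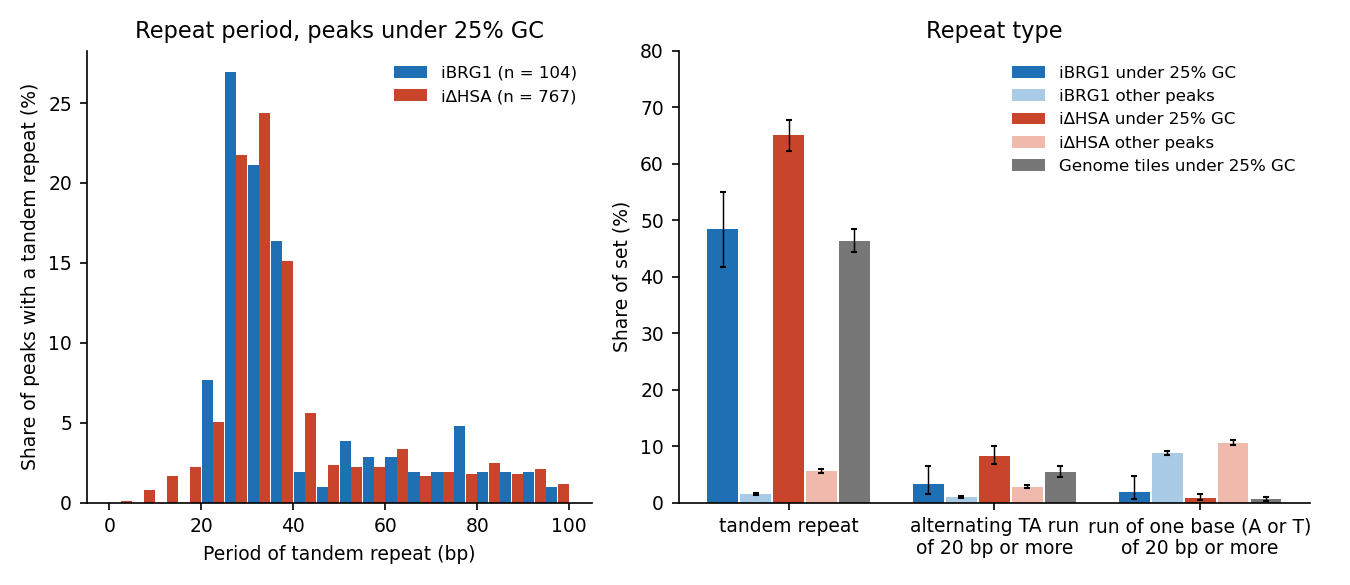
Left, called period of the tandem repeat (x axis, bp, in steps of 5) as a share of the AT-rich peaks that held one (y axis, %). Right, share of each set (y axis, %) with a tandem repeat, an alternating TA run or a run of one base, with 95% Wilson intervals; a tandem repeat was found in 65.1% of i∆HSA and 48.4% of iBRG1 AT-rich peaks.

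Among AT-rich tiles, those with a tandem repeat were in an i∆HSA peak in 67.7% of cases (64.9 to 70.5%; 716 of 1057) and those without in 19.8% (17.7 to 22.1%; 242 of 1221). The gap depended on GC content. From 22.5 to 25% GC the shares were 54.7% and 11.1%, from 20 to 22.5% they were 61.3% and 40.7%, from 15 to 20% they were 76.4% and 61.0%, and below 15% GC they were 81.6% (213 of 261) and 86.1% (31 of 36), with intervals that overlapped. For iBRG1 the shares over all AT-rich tiles were 11.0% (9.23 to 13.0%) with and 2.13% (1.46 to 3.10%) without a repeat.

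Alternating runs of T and A of at least 20 bp were found in 8.32% (6.87 to 10.0%) of the AT-rich i∆HSA peaks, 3.26% (1.59 to 6.57%) of the iBRG1 peaks and 5.44% of the tiles, and in 2.88% and 1.03% of the other peaks of the 2 lists. The longest were 83 bp in i∆HSA and 40 bp in iBRG1. Runs of a single base, A or T, of at least 20 bp went the other way, with 0.849% and 1.86% of the AT-rich peaks of i∆HSA and iBRG1 against 10.6% and 8.86% of the others. TA steps made up a median of 24.1% (i∆HSA) and 20.3% (iBRG1) of dinucleotides, against 18.9% in the tiles and 7.22% and 6.94% in the other peaks. A window of 200 bp with no G or C at all lay in 10.4% of i∆HSA and 6.51% of iBRG1 AT-rich peaks and in 8.25% of the tiles. No CpG was present in 21.6% and 39.1% of the peaks and in 10.1% of the tiles. Both measures depended on width. Among peaks of 1000 bp or more the window lay in 14.1% (i∆HSA) and 15.6% (iBRG1), and no CpG was present in 10.2% and 16.9%.

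Part of this sequence was not unique. A median of 5.54% (4.85 to 6.38%) of the 31-base words of an AT-rich i∆HSA peak and of 1.85% (0.249 to 3.07%) of an iBRG1 peak also occurred over 2 kb away, against 1.97% in the AT-rich tiles. In 4.58% and 6.51% of the peaks more than 50% of the words did so. Where none did, 15.2% (12.8 to 17.9%; 117 of 771) of AT-rich tiles lay in an i∆HSA peak and 3.50% (2.42 to 5.05%) in an iBRG1 peak. Over all AT-rich tiles the shares were 42.1% and 6.23%, and over all tiles 1.36% and 1.31%. Where more than 50% of the words did, they were 31.4% (22.6 to 41.8%; 27 of 86) and 15.1% (9.05 to 24.2%; 13 of 86). How reads with several equal placements were kept is not given in the sources used here, and its part in the scores and in these shares was not tested. Uniqueness also went with repeats: 9.78% of the i∆HSA peaks with a tandem repeat had no word elsewhere, against 20.1% of all 1178. The tiles were not matched for GC content or repeats, and the part of these was not tested.

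The AT content was local. The mean GC content at the midpoint was 14.1% in the AT-rich i∆HSA peaks and 17.0% in the iBRG1 peaks, which follows from the rule, but 2 kb to the left it had returned to 38.6% and 37.9%, near the 39.0% and 39.4% found 5 kb away. The 1 kb on each side had a median of 37.2% (36.9 to 37.5%) in i∆HSA, 34.3% (33.3 to 35.3%) in iBRG1 and 33.1% in the tiles, so the i∆HSA peaks lay in the least AT-rich surroundings of the 3 sets.

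**Figure D4:**
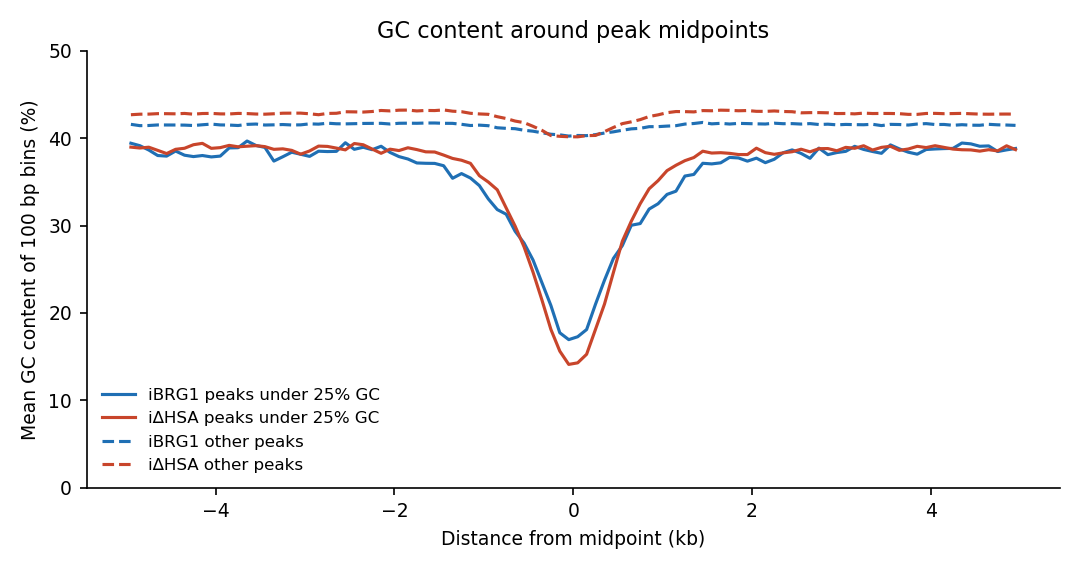
Mean GC content (y axis, %) in 100 bp bins by distance from the peak midpoint (x axis, kb) for AT-rich peaks (solid) and other peaks (dashed) of each list. The dip at the midpoint (14.1% in i∆HSA, 17.0% in iBRG1) follows from the way the peaks were chosen, while the flanks do not.

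Width was recorded by the peak caller and was not named in the rule, but it was not independent of it. GC content was taken over the whole interval, and the flanks were less AT-rich. The part of this in the widths below was not tested. The AT-rich i∆HSA peaks had a median of 1185 bp (1116 to 1244 bp), against 1326 bp for the other peaks, and ranged from 267 to 4266 bp. The iBRG1 ones had a median of 636 bp (531 to 753 bp), against 1328 bp, and ranged from 290 to 4127 bp. By GC content the iBRG1 median was 1362 bp from 15 to 20%, 458 bp from 22.5 to 25% and, past the limit, 521 bp from 25 to 27.5%. In i∆HSA the medians of the same classes were 1442.5, 980 and 736 bp. The widest was chr4:45025715-45029980 (4266 bp, score 12) in i∆HSA and chr6:31393921-31398047 (4127 bp, score 4) in iBRG1.

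The AT-rich peaks lay away from promoters. A promoter here was within 1 kb of any annotated transcript start. It held 52 of the 1178 i∆HSA peaks, or 4.41% (3.38 to 5.74%), and 11 of the 215 iBRG1 peaks, or 5.12% (2.88 to 8.93%), against 22.5% and 19.9% of the other peaks and 3.78% (3.07 to 4.64%) of the AT-rich tiles. Introns held 43.6% and 49.3%, against 41.8% and 44.4% of the other peaks and 39.7% of the tiles. Distal intergenic sequence held 49.3% (46.5 to 52.2%) and 44.7% (38.2 to 51.3%), against 27.0% and 26.4% of the other peaks and 54.2% (52.2 to 56.3%) of the tiles. For promoters the intervals of each list overlapped those of the tiles. In the i∆HSA list, AT-rich tiles in promoters, introns and distal intergenic sequence lay in a peak in 47.7% (37.4 to 58.1%), 44.2% (41.0 to 47.5%) and 39.9% (37.2 to 42.7%) of cases.

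The midpoint lay in a protein-coding gene in 31.2% of i∆HSA and 31.6% of iBRG1 AT-rich peaks, against 53.7% and 55.5% of the others and 24.8% of the tiles. More than 100 kb from any protein-coding gene lay 40.9% (38.1 to 43.8%) and 37.2% (31.03 to 43.8%), against 12.9% and 16.5% of the others and 53.8% of the tiles. The coding genes that held them were long, with medians of 277 kb (i∆HSA) and 282 kb (iBRG1), against 118 and 142 kb for the other peaks and 321 kb for the tiles.

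**Figure D5:**
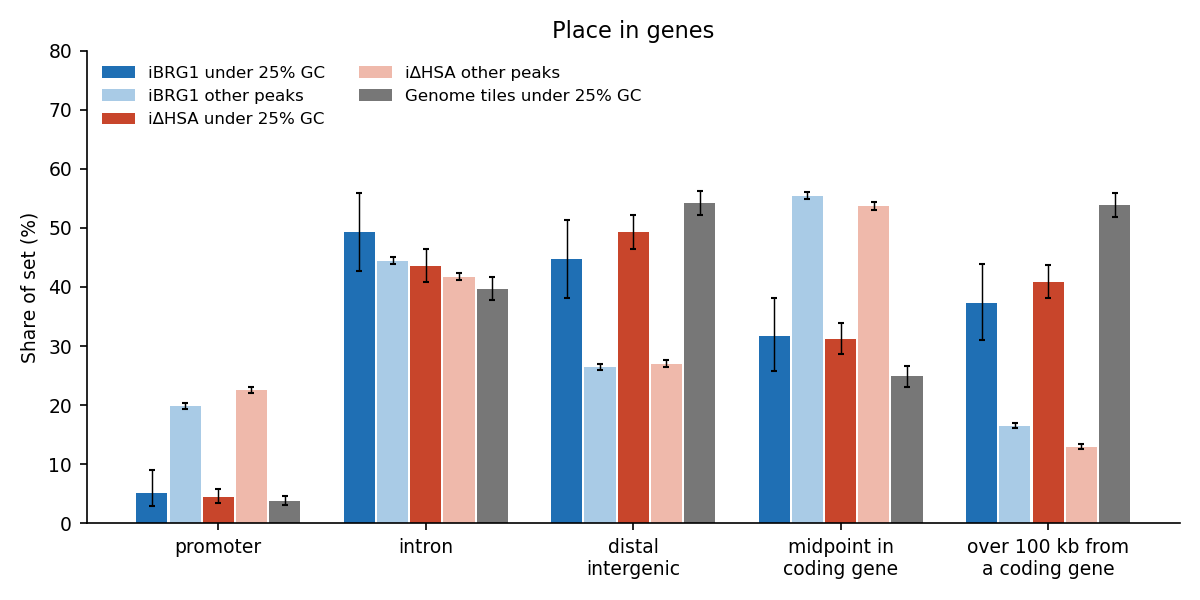
Share of AT-rich peaks, other peaks and AT-rich genome tiles (y axis, %) by place in genes (x axis), with 95% Wilson intervals. Promoters held 4.41% of i∆HSA and 5.12% of iBRG1 AT-rich peaks, near the 3.78% of the tiles and below the 22.5% and 19.9% of the other peaks.

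Protein-coding promoters held few AT-rich peaks, and few AT-rich tiles. None of the 215 iBRG1 peaks lay within 1 kb of the start of a protein-coding transcript, against 11.1% of the other peaks. That allows a share of up to 1.76% (upper Wilson bound). In the i∆HSA list 9 did, or 0.764% (0.402 to 1.45%), against 13.1% of the other peaks and 0.878% of the tiles, and none of the 9 was shared. The highest scores were 72 near OR11H4, an olfactory receptor gene, and 61 near PRR5L, which encodes a protein of the mTORC2 kinase complex. A peak with a score of 17 lay within 1 kb of starts of both ADORA3, the adenosine A3 receptor gene, and TMIGD3. CHRM2, a muscarinic acetylcholine receptor gene, and LRBA, a gene needed for the trafficking of immune receptors, had scores of 6, and CNKSR2, a scaffold gene of neurons, had 4. In LRBA and CNKSR2 the peak covered the start of such a transcript, which need not be the first start of the gene.

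Gene bodies of 355 of 20163 protein-coding genes held an AT-rich i∆HSA peak, or 1.76%, and those of 72 held an iBRG1 one, or 0.357%. Among the 324 genes of 500 kb or more the counts were 79 (24.4%; 20.0 to 29.3%) and 16 (4.94%; 3.06 to 7.87%). The gene with the most in i∆HSA was MALRD1, with 4 intronic peaks of scores from 11 to 72, and 4 of its 5 AT-rich tiles lay in a peak. LUZP2, PARD3B, CALN1 and CSMD1 held 3 each. In iBRG1 EYS, a photoreceptor gene of 1987 kb, held 2, with scores of 1 and 4, and every other gene held at most 1.

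Gene families were counted by the start of the gene symbol alone, so a family as counted can hold genes of another kind. The i∆HSA share over all coding genes was 1.76%. AT-rich i∆HSA peaks lay in 5 of 95 genes of the potassium channel family, or 5.26% (2.27 to 11.7%): KCNIP4, KCNK2, KCNMB2, KCNN2 and KCNS3. They lay in 3 of 33 genes counted as glutamate receptor genes by the letters GRI or GRM (GRIK2, GRIN2A and GRM8), or 9.09% (3.14 to 23.6%). Cadherin genes held them in 2 of 94 cases (CDH12 and CDH4), or 2.13% (0.585 to 7.43%). Contactin and neurexin genes held them in 2 of 16 cases (CNTN4 and CNTNAP2), or 12.5% (3.50 to 36.0%), and integrin genes in 2 of 30 (ITGA11 and ITGA8), or 6.67% (1.85 to 21.3%). Collagen genes held them in 3 of 50 cases in each list, with COL19A1 and COL21A1 in both, COL4A1 in i∆HSA and COL4A3 in iBRG1. The iBRG1 list also had KCNC2 and KCNJ6 (2.11% of the potassium channel family) and CDH12 (1.06% of the cadherins), against 0.357% of all coding genes. Zinc finger genes held AT-rich i∆HSA peaks in 6 of 516 cases, or 1.16% (0.534 to 2.51%), and iBRG1 ones in 3, or 0.581% (0.198 to 1.70%). None of the 29 genes of SWI/SNF subunits, listed by name, held one in either list, which allows a share of up to 11.7% (upper Wilson bound). Channel, adhesion and receptor genes are long, with family medians of 43.5 to 332 kb against 27.2 kb over all coding genes, and the part of gene length was not tested.

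AT-rich peaks were sparse. The median gap from an AT-rich peak to the nearest other one was 693 kb in i∆HSA and 4825 kb in iBRG1, while the 2086 AT-rich stretches of the genome, made by joining adjacent tiles, lay 237 kb apart. Within 20 kb of another were 39 of the 1178 i∆HSA peaks (3.31%; 2.43 to 4.49%), 4 of the 215 iBRG1 peaks (1.86%; 0.726 to 4.69%) and 147 of the stretches (7.05%). Such gaps and shares depend on how many peaks or stretches a set holds, and the part of these numbers was not tested. The nearest peak of 25% GC or more was a median of 72.1 kb from an AT-rich i∆HSA peak and 55.7 kb from an iBRG1 one, while the other peaks lay 25.5 and 29.0 kb from their nearest neighbour.

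The longest run spaced within 20 kb held 3 i∆HSA peaks at chr19:7034029-7063420, in the cluster of MBD3L genes, which encode relatives of the methyl-CpG binding protein MBD3. Their scores were 25, 38 and 54, and 69.7%, 71.4% and 20.9% of their words occurred elsewhere in the genome. How reads of near-identical copies were placed is not given in the sources used here, so the count of 3 is uncertain. In iBRG1 a pair at chr4:31816463-31820624, with scores of 1 and 6, lay within 1 i∆HSA peak, chr4:31816792-31820860, or at its edge, and that peak had a score of 63.

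Across chromosomes 1 to 22 and X, the share of AT-rich tiles in an i∆HSA peak ranged from 12.0% on chromosome 22 (3 of 25) to 87.5% on chromosome 19 (21 of 24; 69.0 to 95.7%). It was 57.1% (49.6 to 64.4%) on chromosome X, where AT-rich peaks were 11.8% of all i∆HSA peaks, 26.7% (19.9 to 34.9%) on chromosome 13 and 29.8% on chromosome 4. In iBRG1 it ranged from 0 of 25 tiles on chromosome 22 to 17.4% (4 of 23) on chromosome 17. The copy number of these chromosomes in the clones was not known.

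Short motifs were counted in the 400 bp at the midpoint on both strands, as letters only. The AP-1 letters TGACTCA or TGAGTCA were found in 1.10% (0.646 to 1.88%) of AT-rich i∆HSA peaks and 1.40% (0.476 to 4.02%) of iBRG1 peaks, against 12.0% and 16.3% of the other peaks and 2.28% of the tiles. The TEAD letters CATTCC were found in 3.82% and 6.05%, against 20.1% and 23.2% of the others and 6.23% of the tiles. The A and T letters AATATATTT, of the base-unpairing type, were found in 19.0% and 16.3%, against 2.96% and 2.37% of the others and 19.2% of the tiles. The homeobox letters TAATTA were found in 29.9% (27.3 to 32.6%) and 30.7% (24.9 to 37.2%), against 18.4% and 17.6% of the others and 39.6% (37.7 to 41.7%) of the tiles. Of the iBRG1 peaks absent from the i∆HSA list 49.5% held TAATTA, and of the shared ones 15.3%. The octamer ATGCAAAT was found in 1.95% and 2.33%, against 3.60% of the tiles, and the forkhead letters TGTTTAC in 3.14% and 4.19%, against 4.87%. None of the motifs contains another. The windows were not of equal GC content, with medians of 15% in i∆HSA (14 to 15.75%), 20.5% in iBRG1 (18 to 21.75%) and 20.75% in the tiles (20.25 to 21.25%), and the part of base composition was not tested.

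At the limit itself the peaks just inside were chr3:96271967-96273931 (24.99% GC, score 3) and chr1:53261983-53263351 (24.98%, score 23) in i∆HSA, and chr19:13646665-13647445 (24.97%, score 4) and chr6:159704127-159704599 (24.95%, score 3) in iBRG1. Just outside lay chr6:151882945-151883224 (25.0%, score 4) and chr3:168691261-168691748 (25.0%, score 2) in i∆HSA, and chr2:83198356-83198927 (25.0%, score 3) and chr13:66470632-66471178 (25.05%, score 2) in iBRG1. These scores lay in the same range on both sides, apart from the 23.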

How the data were processed

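CUT&RUN was run by the authors on SW-13 cells with inducible V5-tagged BRG1, wild-type or HSA-deleted, with 2 replicates per construct. Per the submitters' processing notes, reads were trimmed with cutadapt, aligned to hg19 with Bowtie2 and processed with Picard and SAMtools, and peaks were called with MACS2 2.2. The deposited files were 1 peak list per construct with interval positions and a whole-number score for each peak, on a scale that the sources used here do not state. The authors' methods name a minimum score of 5, and the removal of peaks found in negative controls, yet lower deposited scores were present, and every peak was kept. Aligned reads, coverage and replicate values were not used here, so the depth reached is unknown.

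GC content was computed over each interval from GRCh37, in which no peak ran past a chromosome end, and features were taken from GENCODE release 44 lifted to GRCh37. Each peak took the first of promoter (1 kb on each side of a start), 5' UTR, 3' UTR, exon, intron, downstream (300 bp) and distal intergenic. The genome was cut into 1300 bp tiles as a background. Tandem repeats in which 1 base made up over 80% of the stretch were not counted. Words of 31 bases were taken every 5 bp and counted on both strands. Loci were named by fixed ranks: the 5 highest scores, 3 lowest GC contents and 3 widest peaks per list, up to 6 coding promoters, the 5 genes with most peaks, the longest run and the 2 peaks on each side of the limit. Peaks chosen for display after their values were seen were the VPS13C peak and the i∆HSA-only peak near PRR18. Not every locus that the ranks took is reported here. The peaks and lists were chosen with earlier results of these data known. Scripts were tested on simulated sequence and ran under Python 3.11.15, numpy 2.4.6, pandas 2.3.3, scipy 1.17.1, numba 0.67.0 and matplotlib 3.10.9.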

Additional observations from a re-analysis of the deposited data

How the results depend on the processing

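No paired analysis was possible because values per replicate were not part of either peak list, so no setting without 1 of the replicates was run. The number of AT-rich peaks, 215 in iBRG1 and 1178 in i∆HSA, was set by the limit. At 20% GC it was 80 and 560, with shared shares of 91.25% and 18.2%, median scores of 3 and 20, tile shares of 14.4% and 77.25%, and 1.964% of i∆HSA peaks within 20 kb of another. At 30% GC it was 1373 and 3447, with shared shares of 18.1% and 8.41%, tile shares of 1.71% and 4.15% and, in i∆HSA, a median score of 4, a promoter share of 6.38% and 7.89% within 20 kb. With GC content over the 400 bp at the midpoint, 356 and 1778 peaks were taken, the iBRG1 shared share was 44.9%, tile shares were 2.197% and 9.21%, and in i∆HSA the median score was 9 and the promoter share 6.75%. With only scores of at least 5 in both lists, 49 iBRG1 peaks were counted and none lay within 20 kb of another (0%). Shared shares were then 81.6% and 5.70%, median scores 8 and 20, and tile shares 2.33% and 36.2%. The shared share over the whole lists with that minimum is not given here.

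Shared shares with a reciprocal overlap of 50% were 36.3% and 7.73%, and with midpoints within 500 bp 43.3% and 9.25%. The whole-list shares of 20.5% and 19.6% are for an overlap of 1 bp at any score, so these shares cannot be read against them. Promoter shares at the midpoint were 2.79% and 2.38%, and with protein-coding transcripts alone 0% and 0.764%. Within 10 kb and 50 kb of another lay 1.70% and 6.03% of i∆HSA peaks. Tile shares were 2.996% and 16.2% with tiles of 650 bp, and 12.8% and 64.8% with tiles of 2600 bp. Restricted to tiles with no word elsewhere, an alternative added after seeing the data, they were 3.50% and 15.2%. In each of these settings the i∆HSA tile share was above the iBRG1 one. A tandem repeat called at 80% identity, also added after seeing the data, was found in 54.9% and 76.32%. Taking the smallest lag as the period, added likewise, gave medians of 31 and 32 bp in place of 32.5 and 33 bp. Of 66 values recomputed for the measures above, 17 stayed within the interval of the reported value (for counts, within 1.5 times of it), and of 38 for intergenic share, width, score class and repeat type, 17 did.

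The score gave no depth or read count, so neither list allows a statement on sites absent from it, and a peak missing from one list is not shown to be unbound there.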
